A study of Mus musculus with 6 samples.

Results

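The genes described are 9 components and regulators of complement, namely C1qa, C1qb, C1ra, C4b, C3, Cfd, Serping1, Cd55 and Cd59a, on arrays of mouse muscle satellite cells. A gene was taken from the probe sets that the platform annotation assigns to exactly 1 gene, and where a gene has several the one brightest on average across all 6 arrays stands for it. That average is the measured value used in the choice, and it does not set the groups against each other. By this rule 7 of the 9 genes were found among 19938 genes in all, each with 1 probe set, and C3 and Cfd had none and were not analysed here. Satellite cells, the stem cells of skeletal muscle, came from hind-limb, abdominal and triceps muscle of 2-month-old C57BL/6J mice. They were sorted by flow cytometry as positive for beta-1 integrin and CXCR4 and negative for CD45, CD31, CD11b, Ter119 and Sca1. The fresh group (3 arrays) was extracted after sorting, and the cultured group (3 arrays) after 5 days on collagen and laminin in F10 medium with 20% donor horse serum and 5 ng/ml basic fibroblast growth factor added daily. The design text names 3 mice but links no array to an animal, so a p-value here weighs a difference only against the spread among arrays, part of which may be technical.

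Complement is a cascade of plasma and cell-surface proteins that marks cells and debris for uptake and can open pores in membranes. C1q binds a target and activates the proteases C1r and C1s, which cleave C4 and C2, and the lectin and alternative pathways meet this classical pathway at C3, whose cleavage leads on to C5 and the terminal pore proteins. Host cells are protected by soluble inhibitors, among them the C1 inhibitor encoded by Serping1, clusterin and vitronectin, and by membrane proteins such as CD55, CD59 and, in mice, Crry. The liver makes most plasma complement, macrophages are a main source of C1q, and stromal cells of many tissues make C1r, C1s, C3, C4 and the C1 inhibitor.

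Of the 7 measured genes Serping1 alone stood above background, and only in the fresh cells. Background was read from 1192 genes of olfactory and vomeronasal receptors, taken as not transcribed here. Their 95th percentile was 3.21 on the fresh and 3.32 on the cultured arrays (log2 values). The 36 values of the other 6 genes ran from 1.97 to 3.18, and all 36 lay below the background of their own array. Levels below it show neither presence nor absence of a transcript, and differences there are compressed. In the fit across all genes 1 of the 7 genes was lower in culture, beside 3.37% of all genes, and none was higher, beside 0.953%, with 4.32% of all genes called in either direction. At an unadjusted p under 0.05 the same fit had 1 lower, beside 9.06% of all genes, and 1 higher, beside 8.58%.

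**Figure D1:**
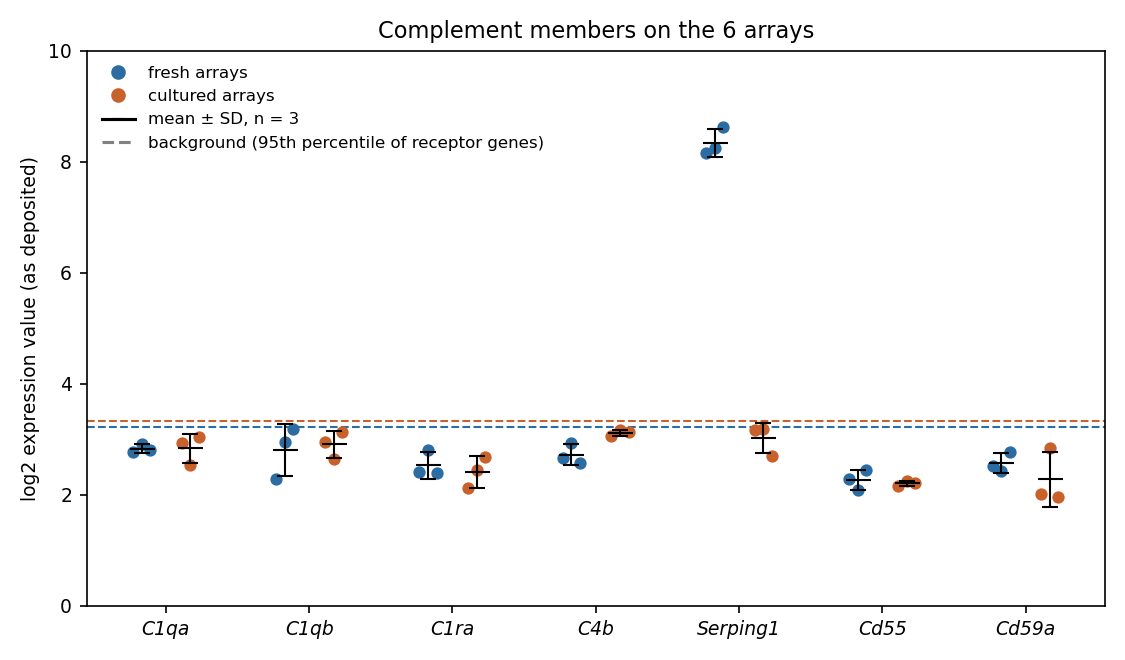
Deposited log2 values of the 7 measured complement genes (horizontal axis) on the 3 fresh and 3 cultured arrays, with mean ± SD (n = 3) and the background of each group as a dashed line. The fresh values of Serping1 lie between 8.15 and 8.63, and every other point lies under the background lines.

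Serping1 encodes the C1 inhibitor, a serine protease inhibitor that inactivates C1r, C1s and the lectin pathway proteases and also restrains plasma kallikrein and factor XII. Its log2 value was 8.15, 8.24 and 8.63 on fresh replicates 1, 2 and 3, and 3.16, 3.19 and 2.70 on cultured replicates 1, 2 and 3. All fresh values were high and close together, all cultured values were within background, and the groups did not overlap. The mean was 8.34 ± 0.26 (SD, n = 3) in fresh and 3.02 ± 0.27 (SD, n = 3) in cultured cells, so that the transcript was at least 32.4-fold lower in culture when the cultured mean is replaced by the background level. The log2 fold change was -5.33 ± 0.20 (SE, 95% interval -5.78 to -4.87), with a limma adjusted p of 1.14e-05 over all genes. Serping1 was among the genes already known to fall in these data when the set was chosen, so this p is a description and not independent evidence. In bulk RNA, fewer cells of a type and less RNA per cell cannot be told apart.

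Genes as bright as Serping1 also tended to be lower on the cultured arrays. Of 175 genes whose fresh mean lay within 0.5 of its own, 76 (43.4%) were called lower, and their median log2 fold change was -1.24, with the middle 50% between -2.38 and -0.45. A window set on the fresh level by itself favours negative differences. After a further quantile normalization of the arrays Serping1 was at -5.03.

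The genes with the profile most like that of Serping1 were sought by the Euclidean distance between log2 values over the 6 arrays after each gene's own mean was subtracted. The nearest was Dpt (distance 0.51), which encodes the matrix protein dermatopontin, made by fibroblasts. It was followed by Btg2 (0.55), an antiproliferative early response gene, Zfp36 (0.62), which encodes an mRNA decay factor, the early response transcription factor Egr1 (0.85) and the metallothionein Mt1 (0.90). The log2 fold changes of these 5 genes lay between -5.29 and -5.02, so the likeness is mainly one of size. All 5 were higher on every fresh array than on any cultured one, which follows from choosing them by their likeness to Serping1.

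C1qa and C1qb encode chains of C1q, the recognition molecule of the classical pathway, and are neighbouring genes with C1qc between them. C1qa was at 2.77, 2.92 and 2.81 on the fresh and at 2.93, 2.54 and 3.03 on the cultured arrays. C1qb was at 2.27, 2.95 and 3.18 on the fresh and at 2.94, 2.65 and 3.13 on the cultured arrays. For both genes the groups overlapped, with the widest spread for C1qb among the fresh arrays (SD 0.47). The log2 fold changes were 0.0036 for C1qa (95% interval -0.38 to 0.39) and 0.11 for C1qb (95% interval -0.47 to 0.69), with limma adjusted p of 0.996 and 0.874. The third chain gene, C1qc, was at 0.09 on the log2 fold change scale (adjusted p = 0.841 with limma), with means of 3.21 in fresh and 3.30 in cultured cells, at the edge of background.

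C1ra encodes C1r, the protease that C1q activates first. It was at 2.40, 2.81 and 2.39 on the fresh and at 2.11, 2.44 and 2.69 on the cultured arrays, so the groups overlapped, and the log2 fold change was -0.12 (95% interval -0.58 to 0.34) with a limma adjusted p of 0.815. C1rb is a near-identical copy, and a further probe set assigned to both genes was within background as well, with means of 2.50 in fresh and 2.03 in cultured cells.

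C4b encodes C4, the substrate of C1s that couples to target surfaces. Its values were 2.66, 2.94 and 2.57 on the fresh and 3.06, 3.17 and 3.13 on the cultured arrays. All cultured values were above all fresh values. The groups did not overlap, in either direction, for 2 of the 7 genes (C4b and Serping1), beside 23.2% of all genes. The log2 fold change of 0.39 ± 0.15 (SE, 95% interval 0.056 to 0.73) had a limma adjusted p of 0.208 and did not pass. The copy C4a, which probes may not separate from C4b, was at 0.34 (adjusted p = 0.439 with limma).

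Cd55 encodes decay-accelerating factor, a membrane-anchored protein that dissociates C3 convertases, and Cd59a encodes a membrane protein that blocks the terminal pore. Cd55 was at 2.27, 2.08 and 2.44 on the fresh and at 2.16, 2.25 and 2.22 on the cultured arrays. Cd59a was at 2.52, 2.42 and 2.77 on the fresh and at 2.02, 2.84 and 1.97 on the cultured arrays, where cultured replicate 2 was the highest of all 6 and the other cultured arrays were the lowest. Both genes had overlapping groups. Their log2 fold changes of -0.06 (95% interval -0.39 to 0.28) and -0.30 (95% interval -0.87 to 0.28) had limma adjusted p of 0.882 and 0.606. The mouse copies did not pass either. Cd55b was at 0.05 within background, and Cd59b at -0.83 (adjusted p = 0.263 with limma), with fresh values of 3.88, 2.71 and 3.94 and cultured values of 2.58, 3.07 and 2.40. For Cd59b the fresh arrays 1 and 3 were above background and fresh replicate 2 was not.

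All 6 genes within background lay in the upper part of the receptor genes. Their mean over the arrays was above that of 62.8% (Cd55) to 90.8% (C4b) of the receptor genes, and Serping1 was above 99.9% of them. Probe sets differ in their own background, so these positions do not order the genes by expression. Over all genes, 8951 (44.9%) had both group means within background.

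The rest of the complement system was followed in 50 further genes listed by role, of which 48 had a probe set. By limma's adjusted p 3 of the 48 fell in culture, beside 3.37% of all genes, and none rose, beside 0.953%. At an unadjusted p under 0.05 there were 6 lower, beside 9.06% of all genes, and 2 higher, beside 8.58%. The median log2 fold change of the 48 was 0.016, beside 0.043 for all genes, and the median of the 7 genes above was -0.06. For 33 of the 48 both group means were within background, and 9 were above the background of every array. The 3 genes that fell were the soluble regulators Clu and Vtn and the scavenger receptor gene Colec12.

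**Figure D2:**
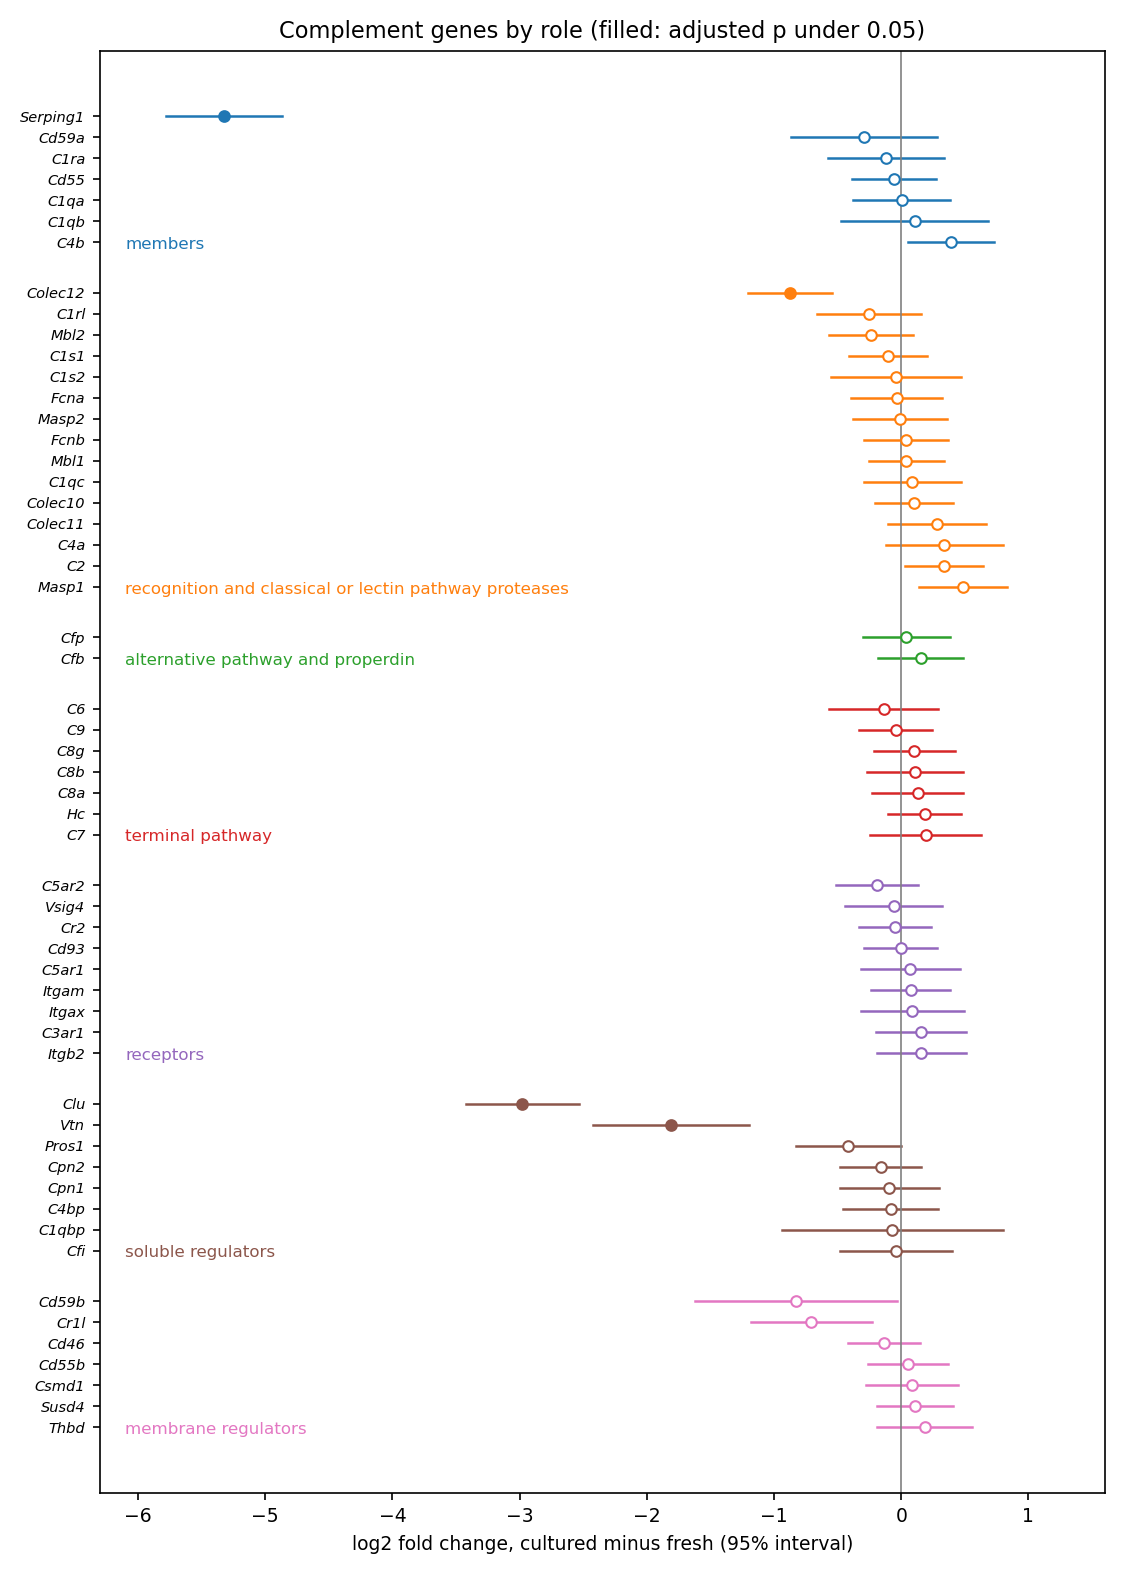
Log2 fold change (cultured minus fresh) with its 95% interval from limma for the 7 measured genes (members) and the 48 further complement genes, grouped by role, with filled points for an adjusted p under 0.05. Serping1, Clu, Vtn and Colec12 are filled and lie left of zero, and no gene to the right is filled.

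Soluble regulators held the largest falls. Of 8 measured members, 2 fell, beside 3.37% of all genes, and none rose, beside 0.953%. At an unadjusted p under 0.05 by limma 3 were lower, beside 9.06% of all genes, and none higher, beside 8.58%. Clu encodes clusterin, a secreted chaperone that also binds the terminal complex. It was at 6.88, 7.55 and 6.99 on the fresh arrays and at 4.15, 4.16 and 4.17 on the cultured arrays. All fresh values were far above all cultured values, and the cultured values remained above background. The log2 fold change was -2.98 ± 0.19 (SE), a 7.88-fold difference, with a limma adjusted p of 0.000121.

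Vtn encodes vitronectin, an adhesive plasma protein that keeps the terminal complex from inserting into membranes. Its values were 4.82, 5.72 and 4.72 on the fresh and 3.20, 3.19 and 3.44 on the cultured arrays. The groups did not overlap, fresh replicate 2 was the highest for both Vtn and Clu, and the cultured mean of 3.28 was within background. The log2 fold change was -1.81 ± 0.27 (SE) with a limma adjusted p of 0.0082, and measured against background the level was at least 3.39-fold lower in culture. The other soluble regulators did not pass, among them Cfi at -0.04, C1qbp at -0.07 and Pros1 at -0.42 (adjusted p = 0.279 with limma). C1qbp, a mitochondrial protein that also binds C1q, was at 6.66, 6.66 and 6.36 on the fresh and spread over 7.42, 5.78 and 6.28 on the cultured arrays. Among 376 genes with a fresh mean like that of Clu 30.6% were called lower, and among 1779 like Vtn 7.81% were.

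**Figure D3:**
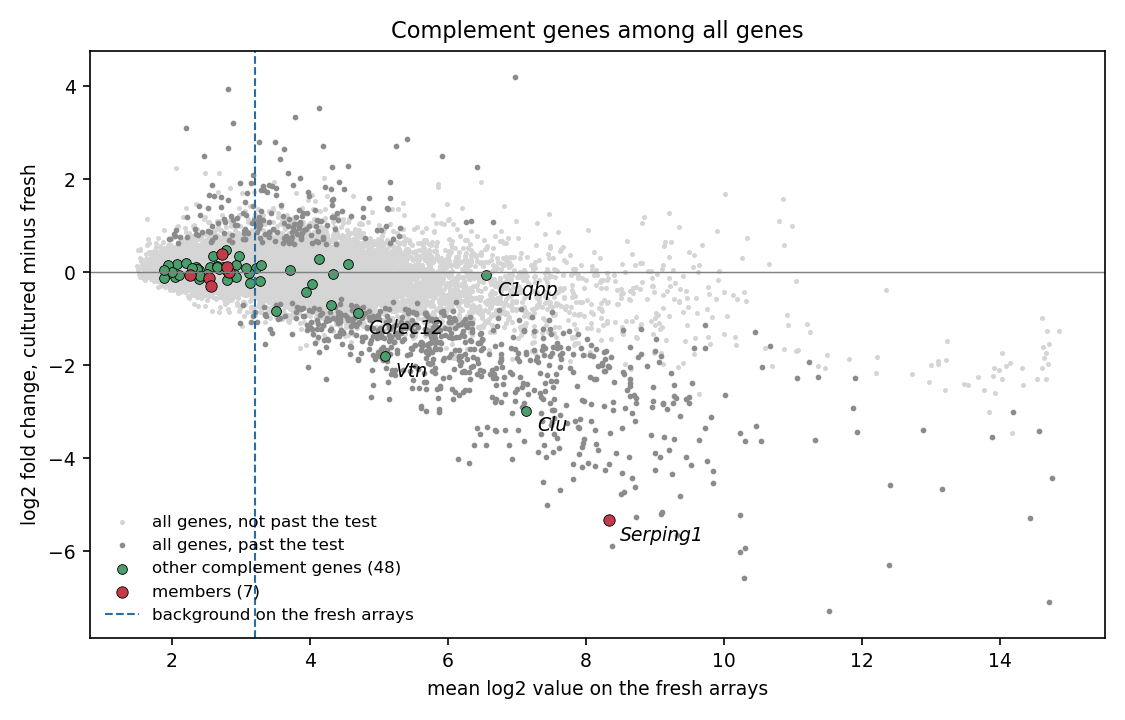
Log2 fold change (vertical) against the mean log2 value on the fresh arrays (horizontal) for 19938 genes, with the 7 measured complement genes in red and the 48 further ones in green. Most complement genes lie left of the fresh background line near zero fold change, while Serping1 lies at 8.34 and -5.33 and Clu at 7.14 and -2.98.

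The sequence just before the start of Vtn, which fell, is shown with that of C1qb, which stayed within background, as the data bear on both. They are the 250 bases before the RefSeq start in build GRCm38.p6, printed 5′ to 3′ on the gene's strand. Of the measured genes of the original set, C1ra, C1qb, Cd55 and Cd59a matched the promoter table.
Vtn, chr11:78498870-78499119, plus strand: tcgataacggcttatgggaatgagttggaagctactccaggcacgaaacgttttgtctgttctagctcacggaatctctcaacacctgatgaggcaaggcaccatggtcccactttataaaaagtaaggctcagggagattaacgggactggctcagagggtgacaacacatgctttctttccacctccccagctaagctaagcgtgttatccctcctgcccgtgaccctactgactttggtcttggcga
C1qb, chr4:136886201-136886450, minus strand: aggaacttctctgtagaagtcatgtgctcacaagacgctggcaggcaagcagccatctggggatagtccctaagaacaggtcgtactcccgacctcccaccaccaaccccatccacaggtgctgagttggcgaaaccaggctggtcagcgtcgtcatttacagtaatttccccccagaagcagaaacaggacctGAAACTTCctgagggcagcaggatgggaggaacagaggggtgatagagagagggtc
Capitals mark a match to a heat shock motif, GAANNTTC. This motif, the AP-1 motif TGANTCA and the gamma-interferon motif TTCNNNGAA were searched on both strands. The share of all 32851 promoter windows of this length with a match was 6.69% for heat shock, 6.75% for AP-1 and 7.02% for the gamma-interferon motif. C1qb had 1 heat shock match and neither of the other motifs, and Vtn, C1ra, Cd55 and Cd59a had no match in this window. A match is a string of letters and not a bound site.

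Recognition molecules and classical or lectin pathway proteases had 1 of 15 measured members lower, beside 3.37% of all genes, and none higher, beside 0.953%. At an unadjusted p under 0.05 by limma 1 was lower, beside 9.06% of all genes, and 2 were higher, beside 8.58%. Colec12, a membrane collectin that binds sugars and lipoproteins, was at 4.57, 4.78 and 4.76 on the fresh and at 3.66, 3.87 and 3.95 on the cultured arrays, with no overlap. It fell by 0.87 on the log2 scale with a limma adjusted p of 0.0137, a call lost without fresh replicate 2 (adjusted p = 0.0687) or fresh replicate 3 (adjusted p = 0.0715). Masp1, a lectin pathway protease, was at 0.49 (adjusted p = 0.133 with limma) and C2, the protease partner of C4, at 0.34 (adjusted p = 0.236 with limma), both within background in both groups. C1rl, a C1r-related protease, was at -0.25, and the C1s genes C1s1 and C1s2 were within background at -0.10 and -0.04.

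The amplification and effector arms of the system gave no calls. The alternative pathway genes Cfb and Cfp, for factor B and properdin, were at 0.15 and 0.04. All 7 terminal pathway genes were within background, between -0.14 for C6 and 0.19 for C7, with Hc, the mouse C5 gene, at 0.18 and C9 at -0.04. None of the 9 complement receptor genes passed, and they lay between -0.19 for C5ar2 and 0.16 for Itgb2, with C3ar1 at 0.16 and Vsig4 at -0.06. By limma none of these genes passed an unadjusted p of 0.05 either.

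Of 7 further membrane regulators none passed. At an unadjusted p under 0.05 by limma 2 were lower, beside 9.06% of all genes, and none higher, beside 8.58%. The 2 were Cd59b and Cr1l, which encodes Crry, the main C3 regulator on mouse cells. Cr1l was at 4.18, 4.36 and 4.36 on the fresh and at 4.02, 3.26 and 3.50 on the cultured arrays. Its groups did not overlap, with cultured replicate 1 close to the fresh values. The log2 fold change was -0.71 ± 0.21 (SE), with a limma adjusted p of 0.115 and, without cultured replicate 1, of 0.0113 at -0.92. It also passed after a further quantile normalization (-0.74, adjusted p = 0.0406), with cyclic loess (-0.77, adjusted p = 0.0283) and with array weights (-0.76, adjusted p = 0.0288). Thbd and Susd4 were at 0.18 and 0.11.

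Markers of other cells that make complement were read on the same arrays. The macrophage and monocyte list had none of 14 members past limma's test, and 11 were within background in both groups. At an unadjusted p under 0.05 by limma 1 was lower, beside 9.06% of all genes, and none higher, beside 8.58%. The mean level of this list was 2.72 to 2.81 on the fresh and 2.74 to 2.78 on the cultured arrays. Ptprc and Itgam, the genes of the sorted-out CD45 and CD11b, and Pecam1, that of CD31, were within background in both groups, while Cx3cr1 averaged 4.11 in fresh and 4.34 in cultured cells. Cd68 was at 3.74 and 3.14 (adjusted p = 0.0995 with limma) and Tyrobp at 3.27 and 3.26. Of 8 endothelial genes 1 was called lower, beside 3.37% of all genes, and none higher, beside 0.953%. It was the angiopoietin receptor gene Tek, which fell from 3.34 to within background at 2.58 (adjusted p = 0.0413 with limma). Measured against background the level of Tek was at least 1.01-fold lower in culture, so this call rests on values near background. At an unadjusted p under 0.05 by limma 1 endothelial gene was lower, beside 9.06% of all genes, and 2 were higher, beside 8.58%. The 2 were Cldn5, at 3.30 in fresh and 4.06 in cultured cells, and Egfl7, at 2.97 and 3.53. The median log2 fold change of the endothelial list was 0.21, beside 0.043 for all genes. Tie1 (3.42 and 3.43) and Cldn5 were above background in both groups. The adipocyte list had none of 7 past the test. At an unadjusted p under 0.05 by limma 2 were higher, beside 8.58% of all genes, and none lower, beside 9.06%. Plin1 was at 3.52 in fresh and 4.09 in cultured cells, Cidec at 3.01 and 3.45 and Car3 at 3.28 and 3.11. Adipoq, which defines adipocytes, was within background in both groups.

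Some fibroblast markers fell as Serping1 did, and so did the satellite cell marker Chodl (8.39 in fresh and 2.49 in cultured cells). Of 9 measured members of the fibro-adipogenic and fibroblast list 4 fell, beside 3.37% of all genes, and none rose, beside 0.953%. Among genes with a fresh mean like that of Clu the share called lower was 30.6%. The mean level of the list was 4.72 to 5.12 on the fresh and 3.41 to 3.48 on the cultured arrays. Dpt fell from 7.44 to 2.42, the proteoglycan gene Dcn from 7.39 to 2.87, the actin-binding gelsolin gene Gsn from 6.82 to 4.57 and the collagen gene Col3a1 from 6.04 to 4.97, while Col1a1 was at 5.25 and 5.12. Pdgfra, a defining marker of these cells, averaged 3.35 in fresh and 3.62 in cultured cells, and Lum, Mfap5 and Pi16 were within background in both groups. On fresh replicates 1, 2 and 3 Dcn was at 8.53, 7.78 and 5.86, and Dpt at 7.39, 7.24 and 7.68. Serping1 was highest on fresh replicate 3, where Dcn was lowest and Dpt highest. The tendon list mean was 5.05 on fresh replicate 1 and 3.21 to 3.81 on the other 5 arrays, and without that array Serping1 was at -5.42. None of the 5 tendon genes passed the test. At an unadjusted p under 0.05 by limma none was lower, beside 9.06% of all genes, and 2 were higher, beside 8.58%. The 2 were Scx, at 5.06 in fresh and 5.92 in cultured cells, and Mkx, at 2.89 and 3.30 within background. The parts of fibroblast and of satellite cell transcripts in the falls of Serping1, Clu and Vtn were not tested.

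**Figure D4:**
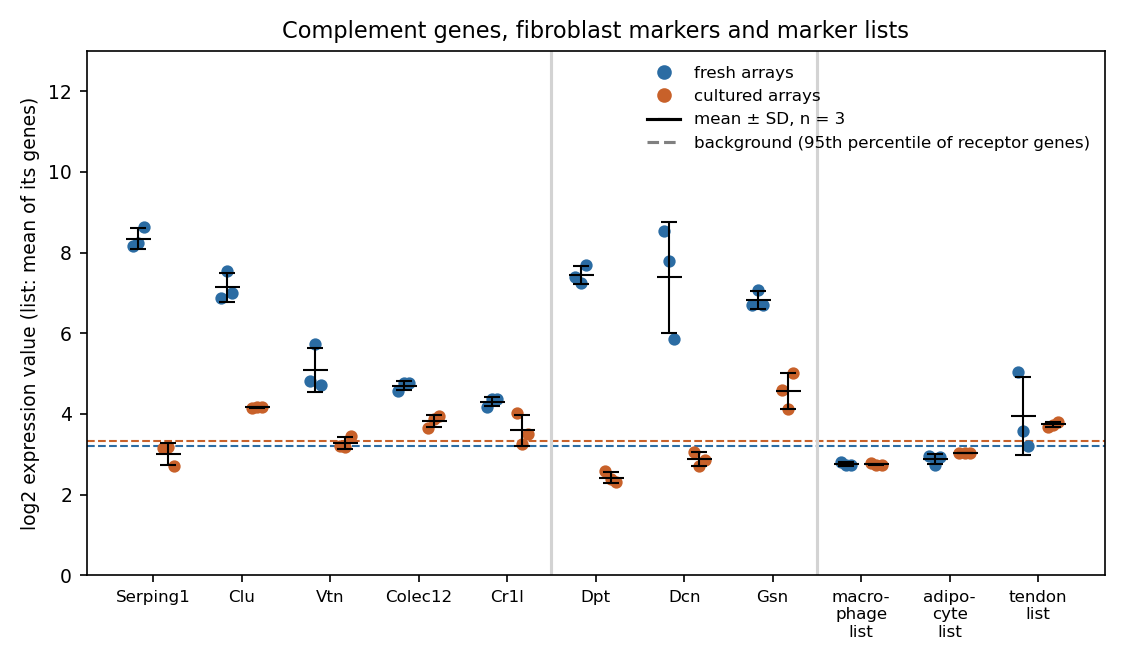
Log2 values on the 3 fresh and 3 cultured arrays, with mean ± SD (n = 3), of 5 complement genes, of 3 fibroblast markers and of the mean over each of 3 marker lists, with the background of each group dashed. Serping1, Clu, Vtn, Colec12, Cr1l, Dpt, Dcn and Gsn are higher on all fresh arrays than on any cultured array. The macrophage list stays between 2.72 and 2.81.

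All 10 satellite cell markers listed were above background in the fresh cells and 9 in culture. Chodl averaged 8.39 in fresh cells and 2.49, within background, in cultured cells. Its log2 fold change was -5.90 (adjusted p = 1.29e-05 with limma), and measured against background the level was at least 33.4-fold lower in culture. Cxcr4, used for the sort, averaged 7.52 in fresh and 5.05 in cultured cells, Itgb1 6.72 and 6.17, and the satellite cell transcription factor Pax7 6.47 and 5.14. In the satellite cell list 7 of 10 fell by limma, beside 3.37% of all genes, and none rose, beside 0.953%. The 7 were Pax7, Cxcr4, Chodl, the myogenic factor gene Myf5, the calcitonin receptor gene Calcr, the adhesion gene Vcam1 and the proteoglycan gene Sdc4. The median log2 fold change of the list was -1.99, beside 0.043 for all genes. The list mean was 6.49 to 7.03 on the fresh arrays. Bright genes were called lower more often, 30.6% of those with a fresh mean like that of Clu.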

How the data were processed

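Labelled RNA was hybridised to whole-transcript Affymetrix arrays. The authors deposited log2 values for 35556 probe sets, and the submitters' processing notes name RMA and the package oligo, with no version and no genome build. The platform annotation gave 21789 probe sets 1 gene and 1621 several, and 12146 were unlisted. Symbols were taken by Entrez ID from the GRCm38.p6 gene table, and the brightest probe set was kept per gene.

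Cultured and fresh arrays were compared with limma 3.58.1 in R 4.3.3 (lmFit and eBayes, group as the only term, no filter, Benjamini-Hochberg over 19938 genes, threshold 0.05). Lists are described by counts and medians, with no set test. The members and lists were chosen with earlier results of these data known. Named were all measured members, genes of the other lists past the test, complement genes with the 2 highest and lowest fold changes of a role, copies of members, the 3 brightest macrophage, adipocyte and fibroblast markers, and the 5 nearest profiles of the 3 members with the largest fold changes. Other markers of the sort, defining markers, Pros1, Tie1, Cldn5, Egfl7, Scx and Mkx, Dcn and Dpt by array, and C1s1 and C1s2 were added after values were seen.

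Array medians were 3.10 to 3.15. For the 49 brightest genes (mean over 11), cultured replicates 1, 2 and 3 differed from the fresh average by a median of -0.09, -3.33 and -2.87. The fit called 861 genes, 671 lower and 190 higher. In simulated data for cultured against fresh with 19938 genes, 36 of 50 genes changed by a log2 of 1 were recovered, 47 of 50 at 2 and all 50 at 3 and at 4, with 6 false calls. The simulated noise was normal and independent, with no background floor and no difference between arrays. Its recovery rates therefore do not carry over to genes within background. The alternatives were a trended robust prior, array weights, quantile normalization, cyclic loess, median centring, a background filter, other probe set rules, a replicate block and leaving out each array. The number of arrays limits the precision.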

Additional observations from a re-analysis of the deposited data

How the results depend on the processing

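The falls of Serping1, Clu and Vtn kept their direction and their call in all 15 alternatives, with log2 fold changes of -5.51 to -5.03, -3.11 to -2.71 and -1.99 to -1.49. The trended prior and the background filter cannot change a fold change. Nor can the other probe set rules here, as each of these genes has 1 probe set. Colec12 ranged from -0.94 to -0.79 when 1 array was left out, with calls lost as given above. The number of members past the test was 1 throughout, and that of other complement genes 2 to 4. The genes called in all numbered 1742 with array weights, 1511 after quantile normalization, 1492 with cyclic loess, and 448 (without cultured replicate 3) to 1517 (without cultured replicate 1) when 1 array was left out. It was 478 without fresh replicate 2 and 471 without fresh replicate 3. The share of calls that were higher in culture was 22.1%, 38.8% after quantile normalization, 33.6% with array weights, 15.3% with the replicate block, and 10.8% (without fresh replicate 3) to 34.7% (without cultured replicate 2) when 1 array was left out. Signs of genes within background changed between settings. C1qa was at -0.046 after quantile normalization, -0.049 with cyclic loess and -0.035 after median centring, and C1ra at 0.013 with array weights. Without 1 array C1qa ranged from -0.095 to 0.15, C1qb from -0.16 to 0.29, C1ra from -0.26 to 0.030, Cd55 from -0.15 to 0.033 and Cd59a from -0.58 (without cultured replicate 2) to -0.14 (without cultured replicate 3). The median of the other complement genes was -0.0042 with array weights, -0.0090 with cyclic loess, -0.022 after median centring, -0.19 among genes above background and -0.014 to 0.028 without 1 array. The background filter left Serping1 as the only member, so their median became -5.33. Causes of these shifts were not tested beyond what the filter removes.

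The labels number the arrays 1 to 3 in both groups. Deviations of same-numbered arrays from their group means correlated at -0.09, -0.14 and 0.03 over genes. Such correlations cannot show whether same-numbered arrays share an animal, which the labels do not state. With the replicate block 662 genes were called, 602 of them among the 861. Under the block the log2 fold changes are the same by construction, and Serping1 (-5.33), Clu (-2.98), Vtn (-1.81) and Colec12 (-0.87) kept their calls. Without 1 array, a group of 2 is assumed to vary like the group of 3.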

Other observations

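The members with the next largest fold changes after Serping1 were C4b and Cd59a, both within background. By the same distance over the 6 arrays, the genes nearest to C4b were Wnt10a (0.099), Lax1 (0.10), Cers4 (0.12), Zranb3 (0.13) and Sh3glb2 (0.14), and those nearest to Cd59a were Wnt2 (0.24), Dok4 (0.32), Enkur (0.32), Csf3 (0.33) and Selenbp2 (0.33). None of these 10 genes passed limma's test, with adjusted p between 0.166 and 0.777.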
